A study of Mus musculus with 26 samples.

Results

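The RNA of 10 genes that mark the undifferentiated state of mouse embryonic stem cells was followed in wild type cells (WT) and in cells with a knockout of Hmces (HMCES-KO). The genes were listed by name, a list drawn up with earlier results of these data known, though its rule sets no threshold on a measured value: the core transcription factor genes Pou5f1, Sox2 and Nanog, the stem cell genes Utf1 and Lin28a, the developmental pluripotency associated genes Dppa2, Dppa3, Dppa4 and Dppa5a, and the metabolic gene Tdh. They are 10 of the 25239 genes in the largest deposited table, each of the 6 tables listed all 10, and all 10 passed the filter on low values in every fit. In mm10, the build of the files, Pou5f1 spans chr17:35506032-35510777, Sox2 chr3:34649995-34652460, Nanog chr6:122707489-122714633, Utf1 chr7:139943856-139945112 and Lin28a chr4:134003330-134018816. Dppa2 spans chr16:48310274-48319513, Dppa3 chr6:122626424-122630271, Dppa4 chr16:48283735-48294292, Dppa5a chr9:78367054-78368199 and Tdh chr14:63492347-63509092, and all are protein-coding genes.

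Embryonic stem cells hold their identity through a small circuit in which OCT4, the product of Pou5f1, pairs with SOX2 on composite DNA elements, and in which NANOG supports the same genes. UTF1 and the DPPA proteins are made in undifferentiated cells and are lost as the cells commit to a germ layer, so their RNA says whether the undifferentiated state is kept without pointing to one germ layer. HMCES is known as a protein that binds DNA at abasic sites.

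The promoters of the core trio are shown because the core factors are known to act on the regulatory DNA of their own genes. Each line gives the 250 bases before the annotated start in RefSeq, build GRCm38.p6, plus strand, 5′ to 3′: Pou5f1 at chr17:35505782-35506031, Sox2 at chr3:34649745-34649994 and Nanog at chr6:122707239-122707488. Capitals mark every match, on either strand, to TTTGCAT (octamer-like), ACAATG (SOX-like) and GGGCGG (GC box).
Pou5f1: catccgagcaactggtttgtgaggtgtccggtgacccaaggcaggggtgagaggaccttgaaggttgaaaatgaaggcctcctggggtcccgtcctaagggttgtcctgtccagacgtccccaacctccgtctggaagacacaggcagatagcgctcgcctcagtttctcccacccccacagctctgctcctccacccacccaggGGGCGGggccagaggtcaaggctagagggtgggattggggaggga
Sox2: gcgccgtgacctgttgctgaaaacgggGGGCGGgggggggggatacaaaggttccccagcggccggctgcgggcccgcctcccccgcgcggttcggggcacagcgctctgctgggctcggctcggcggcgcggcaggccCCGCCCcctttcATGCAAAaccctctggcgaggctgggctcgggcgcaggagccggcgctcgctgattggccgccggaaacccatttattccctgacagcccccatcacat
Nanog: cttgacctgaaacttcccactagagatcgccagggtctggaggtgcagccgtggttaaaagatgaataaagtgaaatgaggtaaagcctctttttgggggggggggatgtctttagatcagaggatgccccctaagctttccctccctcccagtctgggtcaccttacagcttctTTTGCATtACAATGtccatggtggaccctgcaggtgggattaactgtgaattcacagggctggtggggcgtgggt

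The Nanog promoter held an octamer-like and a SOX-like match side by side, starting 75 and 67 bases before the start. In Sox2 an octamer-like match lay 99 bases before the start, on the minus strand, and Pou5f1 held neither, with a single GC box 45 bases before the start. Of 32851 promoter windows of 300 bases in RefSeq, each running 50 bases past the start, 4.63% held TTTGCAT, 12.6% ACAATG, 0.813% both and 35.7% GGGCGG. Promoter entries were matched for 5 of the 10 genes.

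Steady-state RNA was sequenced in 26 libraries from cells labelled C57BL/6, grown in serum medium on gelatin. The count table held untreated cells: 2 libraries each of the knockout lines KO8 and KO7 and of WT. Its headers name KO7, KO8 and ES, and the ES columns were taken as WT because the description lists WT first. A separate TPM table (reads per gene length, scaled to the sum of 1000000) held 2 untreated HMCES-KO and 2 untreated WT libraries. Its headers name the knockout columns K81 and K82 and the WT columns CCE1 and CCE2, and the sources used here do not say whether these stand for KO8 or for another parental line. After them, 4 more TPM tables each held 1 library of line KO2, 1 of KO1 and 2 of WT after 2 h with activin A (50 ng/ml), a ligand of the Nodal/activin receptors, SB431542 (10 µM), an inhibitor of those receptors, BMP4 (10 ng/ml) or LDN193189 (50 nM), an inhibitor of BMP receptors. The sources used here do not say how the knockout was made, whether each line is 1 clone, or which of KO1 and KO2 is KO7 or KO8. The name of the count table lists KO1 before KO2, and its columns run KO7 before KO8, but no label states that these orders match.

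In units of 1000000, total counts per library were 9.57 to 13.5 in the count table, and the reads recovered from TPM came to 8.52 to 10.0 per untreated and 4.12 to 5.54 per treated library. Hmces RNA was at 81.6 to 127 CPM (counts per 1000000 counts) in HMCES-KO and 297 to 357 CPM in WT libraries of the count table, at 159.5 and 166 TPM in HMCES-KO and 755 and 750.2 TPM in WT in the untreated TPM table, and in the treated tables at 143 to 184 TPM in KO2, 325 to 399.8 TPM in KO1 and 507 to 663 TPM in WT. Markers of primitive or visceral endoderm were lower in HMCES-KO. Of 12 listed genes 11 were tested in the count table and all 11 fell, where 20.8% of all genes fell. The listed genes summed to 289 to 328 CPM in HMCES-KO and 631 to 661 CPM in WT. None of the 12 was at 0 in every library. All 5 neuroectoderm markers rose in the count table, where 19.9% of all genes rose. Their sums were 236 to 321 CPM in HMCES-KO and 153 to 172 CPM in WT. By untreated TPM, 3 of 9 tested endoderm markers fell, against 10.2% of all genes, and 3 of 5 neuroectoderm markers rose, against 5.8%. The endoderm sums were 221 to 223 TPM in HMCES-KO and 293 to 312 TPM in WT, with Afp listed at 0 in every library. After treatment, 6 of 11 endoderm markers fell and 2 of 4 neuroectoderm markers rose, where 20.7% of all genes fell and 13.8% rose. Of 8 fibroblast or feeder markers, 4 were tested in the count table. Of these, 3 fell and 1 rose in the HMCES-KO mean (median -1.45), where 20.8% of all genes fell and 19.9% rose. The listed genes summed to 236 to 408 CPM in HMCES-KO and 232 to 267 CPM in WT, with Lum at 0 in every library. By untreated TPM 3 were tested, and after treatment also 3, and each time 1 fell and 1 rose. Their sums by untreated TPM were 529 to 546 TPM in HMCES-KO and 447 to 457 TPM in WT. In each treated table both HMCES-KO sums also lay above both WT sums. With activin A they were 764 to 845 TPM against 615 to 664 TPM. Trophectoderm markers parted the lines in the count table. Of 6 tested, 3 rose in KO8, 2 fell in KO7, and 4 were higher in KO8 than in KO7 (median difference 1.11). The shares of all genes in these directions were 19.3%, 19.2% and 13.9%. Trophectoderm sums were 71.7 to 168 CPM in HMCES-KO and 79.6 to 80.5 CPM in WT. The part of these shifts in the results on the 10 genes was not tested. In bulk RNA, fewer cells of a type and less RNA per cell cannot be told apart.

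All 10 genes were detected in every library. In the count table, converted to TPM, Pou5f1 was the highest, averaging 4668 TPM over the 6 libraries (4278 to 4899), followed by Utf1 at 2298 (2113 to 2512) and Sox2 at 1345 (1232 to 1435). Dppa5a (817 to 1551 TPM) and Nanog (996 to 1239 TPM) followed with overlapping ranges, and then Lin28a (369 to 556 TPM). Below them came Tdh at 194 to 316 TPM, Dppa2 at 129.6 to 178 TPM and Dppa4 at 35.9 to 42.2 TPM, none of whose ranges overlapped. Dppa3 closed the order at 1.71 to 7.09 TPM, from only 5 to 22 counts per library. The deposited untreated TPM table gave the same order by mean level, with Pou5f1 at 3619.8 to 3709.7 TPM and Dppa3 at 1.11 to 4.22 TPM. Treated levels rest on other gene lengths and cannot be set against these.

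Among untreated cells with counts, some members were higher and others lower. Relative to WT, the mean of the HMCES-KO lines was higher for Tdh, Dppa2, Lin28a and Pou5f1 and lower for Dppa5a, so 5 of 10 members were called, 4 higher and 1 lower (edgeR quasi-likelihood test, adjusted p under 0.05), against 40.6% of the 13475 genes tested, 19.9% higher and 20.8% lower. KO8 and KO7 are set against the same 2 WT libraries, as KO2 and KO1 are against the same 8. The members' median log2 fold change was -0.01, as was that of all genes. Taken apart, KO8 had 5 called members, 3 higher and 2 lower, against 38.9% of all genes, 19.3% higher and 19.7% lower. KO7 had 4, 3 higher and 1 lower, against 38.2%, 19.0% higher and 19.2% lower. With the 4 HMCES-KO libraries fitted as 1 group, the difference between the lines enters the spread. Dppa5a alone then remained called, 1 of 10 members against 11.5% of 13475 genes. The edgeR adjusted p of the other 4 ran from 0.072 for Pou5f1 to 0.30 for Lin28a.

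**Figure D1:**
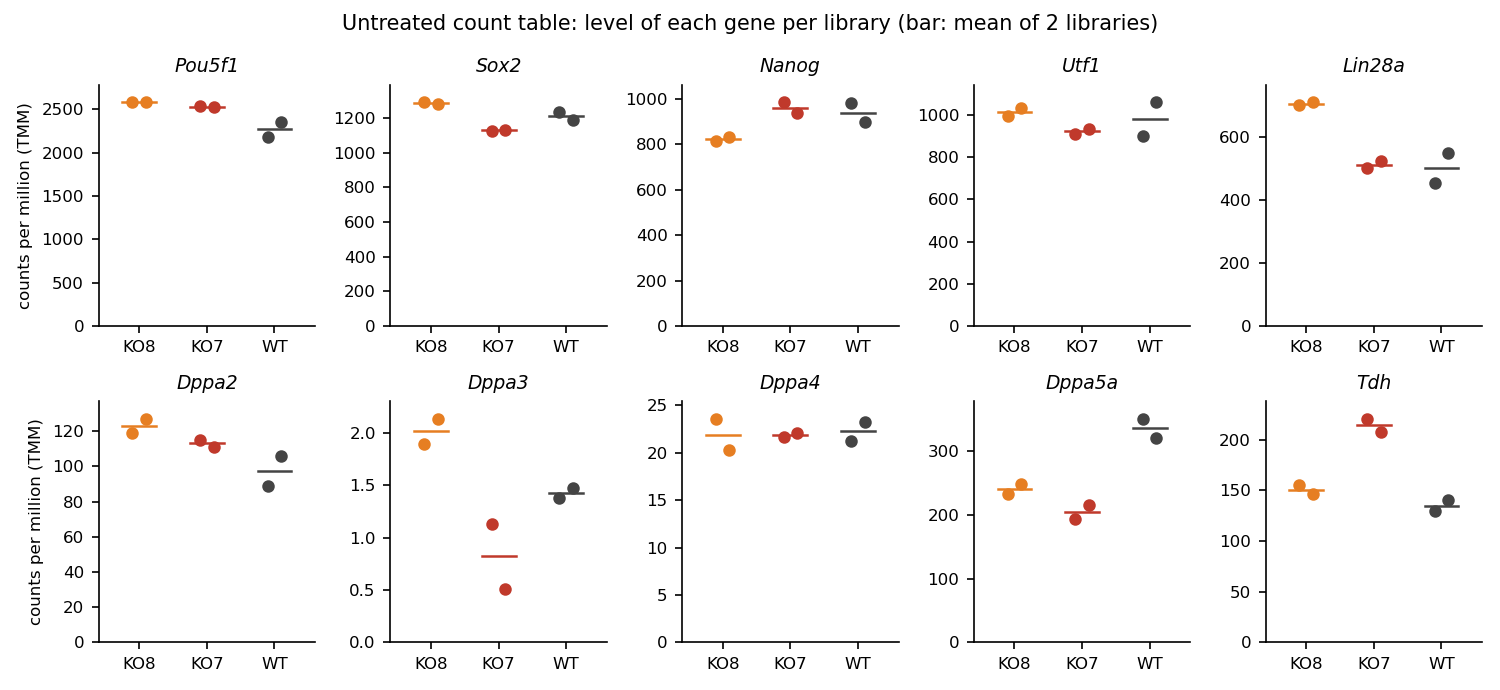
Level of each gene in CPM (TMM-scaled, linear axis from 0) in the 2 libraries each of KO8, KO7 and WT in the untreated count table, points for libraries and bars for means. Dppa5a lies lower in all 4 HMCES-KO libraries (193 to 248 CPM) than in WT (321 and 350.1 CPM), and Tdh is highest in KO7.

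Of the 10 members, 4 were called in the separate untreated TPM table, 1 higher and 3 lower, against 16% of 13314 genes, 5.8% higher and 10.2% lower (limma on log2(TPM + 1), adjusted p under 0.05). Nanog, Lin28a and Utf1 fell and Tdh rose. These calls were sensitive to the model of the spread. Without limma's trended prior none of the 4 passed, with limma adjusted p from 0.079 for Nanog to 0.16 for Utf1. By contrast, edgeR on the recovered reads called 6 of 10 members, against 28.0% of 12806 genes. Over the 4 treated tables together, Dppa2, Pou5f1 and Utf1 rose and Dppa5a fell, 4 of 10 members against 34.5% of 12608 genes, 13.8% higher and 20.7% lower (limma). Each treated table holds the same lines KO2 and KO1, whose libraries deviated together across tables (correlations 0.23 to 0.32). The fit takes these libraries as independent, so it may understate the spread, and they are not separate replicates of the knockout. By line over the treated tables, KO2 had 4 called members, 3 higher and 1 lower, against 28.9% of genes, 12.2% higher and 16.6% lower. KO1 had 5, 3 higher and 2 lower, against 32.7%, 12.4% higher and 20.3% lower.

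**Figure D2:**
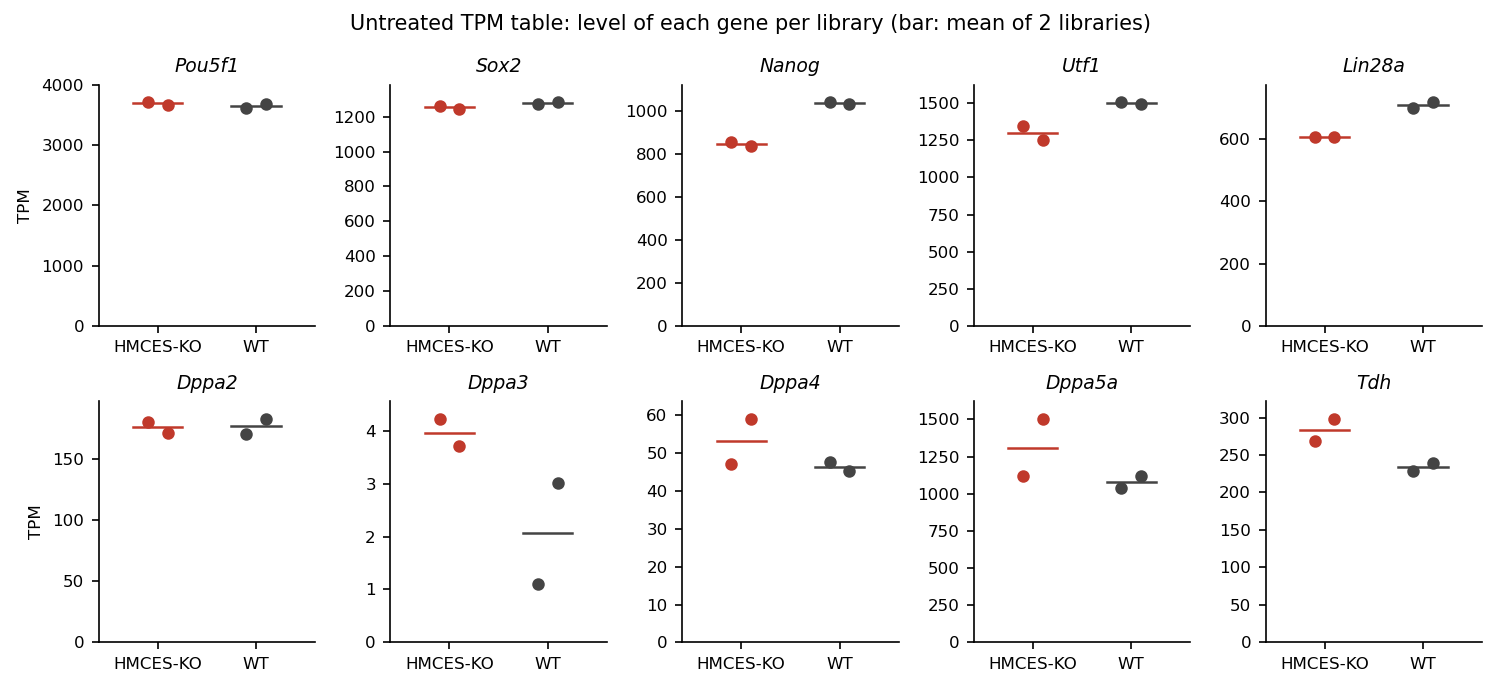
Level of each gene in TPM (linear axis from 0) in the 2 HMCES-KO and 2 WT libraries of the untreated TPM table, points for libraries and bars for means. Nanog lies at 858 and 837 TPM in HMCES-KO and at 1041 and 1033 TPM in WT.

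Pou5f1 encodes OCT4, the POU domain factor without which the pluripotent cell mass does not form. It was slightly higher in HMCES-KO in most data sets. In the count table its level was 2578 and 2578 CPM in KO8, 2539.6 and 2520.1 CPM in KO7 and 2180.0 and 2353 CPM in WT, so every HMCES-KO library lay above both WT libraries. The log2 fold change was 0.19 ± 0.05 (standard error) for KO8 (edgeR adjusted p = 0.0059) and 0.16 ± 0.05 for KO7 (edgeR adjusted p = 0.016). Both calls were lost when either library of the line was left out, with edgeR adjusted p of 0.063 and 0.064 for KO8 and 0.13 and 0.10 for KO7, though the mean of both lines passed without any 1 library.

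In the untreated TPM table Pou5f1 was at 3709.7 and 3673 TPM in HMCES-KO and at 3619.8 and 3684 TPM in WT. The groups overlapped, and the log2 fold change of 0.02 ± 0.03 did not pass with limma (adjusted p = 0.71) but did, at 0.07 ± 0.02, with edgeR on the recovered reads (adjusted p = 0.031). Under activin A, SB431542, BMP4 and LDN193189, in that order, Pou5f1 was at 5507, 5172, 5924 and 5783 TPM in KO2 and at 5808, 5397, 6623 and 6801 TPM in KO1. The 8 WT libraries ran from 4699.7 to 5818 TPM with a median of 5146 TPM. Within each of the 4 tables both HMCES-KO libraries lay above both WT libraries. The log2 fold change over the tables was 0.25 ± 0.04 for KO1 (limma adjusted p = 0.00024) and 0.11 ± 0.04 for KO2 (limma adjusted p = 0.046), and the KO2 call failed when any of 12 of the 16 libraries was left out, with adjusted p up to 0.20, without the filter (0.059) and without limma's trend (0.17).

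Sox2, whose product is the HMG box partner of OCT4, was called in 1 of the 19 comparisons, that between KO8 and KO7. In the count table it was at 1291 and 1283 CPM in KO8, 1126 and 1132 CPM in KO7 and 1235 and 1188 CPM in WT. Thus KO8 lay above and KO7 below WT, neither by more than the test allowed, with log2 fold changes of 0.09 ± 0.05 (edgeR adjusted p = 0.17) and -0.10 ± 0.05 (edgeR adjusted p = 0.11). It was at 1259 and 1246 TPM in HMCES-KO and at 1272 and 1282 TPM in WT in the untreated TPM table, a log2 fold change of -0.03 ± 0.03 (limma adjusted p = 0.53). After treatment its level was 2426 to 2838 TPM in HMCES-KO and 2450.4 to 2664 TPM in WT, overlapping as a whole, though under BMP4 both lines (2426 TPM each) lay below both WT libraries (2533 and 2602 TPM). The log2 fold change of 0.01 ± 0.04 over the 4 tables was the smallest of the 10 members in size. Sox2 lies inside the long noncoding gene Sox2ot, and any reads of Sox2ot RNA that fall within Sox2 cannot be told apart from its own. The counting command also sets no strand option.

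Nanog encodes a homeodomain factor that stabilises the undifferentiated state, and in human embryonic stem cells SMAD2 and SMAD3 act on its promoter. Its direction differed between data sets. The count table had it at 814 and 834 CPM in KO8, 986 and 938 CPM in KO7 and 981 and 899 CPM in WT. Both KO8 libraries lay below WT, while KO7 overlapped it. On the log2 scale the change was -0.19 ± 0.05 for KO8 (edgeR adjusted p = 0.0085) and 0.03 ± 0.05 for KO7 (edgeR adjusted p = 0.67). Without either KO8 library the KO8 value no longer passed, at edgeR adjusted p of 0.12 and 0.061.

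The untreated TPM table had Nanog at 858 and 837 TPM in HMCES-KO and at 1041 and 1033 TPM in WT, a clear gap. Its log2 fold change there was -0.29 ± 0.03 (limma adjusted p = 0.0051), and it kept passing whichever of the 4 libraries was left out. After treatment with activin A, SB431542, BMP4 and LDN193189, Nanog was at 1049, 789, 923 and 846 TPM in KO2, at 1099, 871, 1055 and 998 TPM in KO1, and at 812 to 1051 TPM in WT, with a WT median of 867 TPM. KO1 lay above both WT libraries in 3 of 4 tables and KO2 in 1. Over the tables KO1 was higher by a log2 fold change of 0.16 ± 0.05 (limma adjusted p = 0.021), and KO2 differed by 0.00 ± 0.05 (limma adjusted p = 0.97). The KO1 call rested on 2 libraries, since it failed without the KO1 library under BMP4 (adjusted p = 0.11) or under LDN193189 (adjusted p = 0.087), and it failed without limma's trend (adjusted p = 0.082).

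Nanog lies at chr6:122707489-122714633 (mm10), and Dppa3 ends 77.2 kb before it. They lie in a stretch of chromosome 6 that was shifted downward in the count table and, mostly in KO1, in the treated tables. Of the 422 genes tested from 60 Mb on, 58.8% were called lower in the mean of the HMCES-KO lines of the count table, against 20.8% of all genes. By line the share was 46.2% in KO8, against 19.7%, and 62.3% in KO7, against 19.2%. The median log2 fold change for the line mean was -0.32, against -0.01 over all genes. In the treated tables the median was -0.21 over 388 such genes, against -0.04 over all, with 33.8% called lower, against 20.7%. For KO1 47.4% were called lower, against 20.3% of all genes, with a median of -0.35 against -0.07. For KO2 21.9% were called lower, against 16.6%, with a median of -0.10 against -0.02. No such shift was seen in the untreated TPM table, where the median was 0.03 over 418 genes, against -0.06. There 11.2% were called higher and 6.70% lower, against 5.8% and 10.2% of all genes. The cut at 60 Mb was set with earlier results of these data known, so the shares describe the stretch and are no test of it. The part of this regional shift in the values of Nanog and Dppa3 was not tested.

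**Figure D3:**
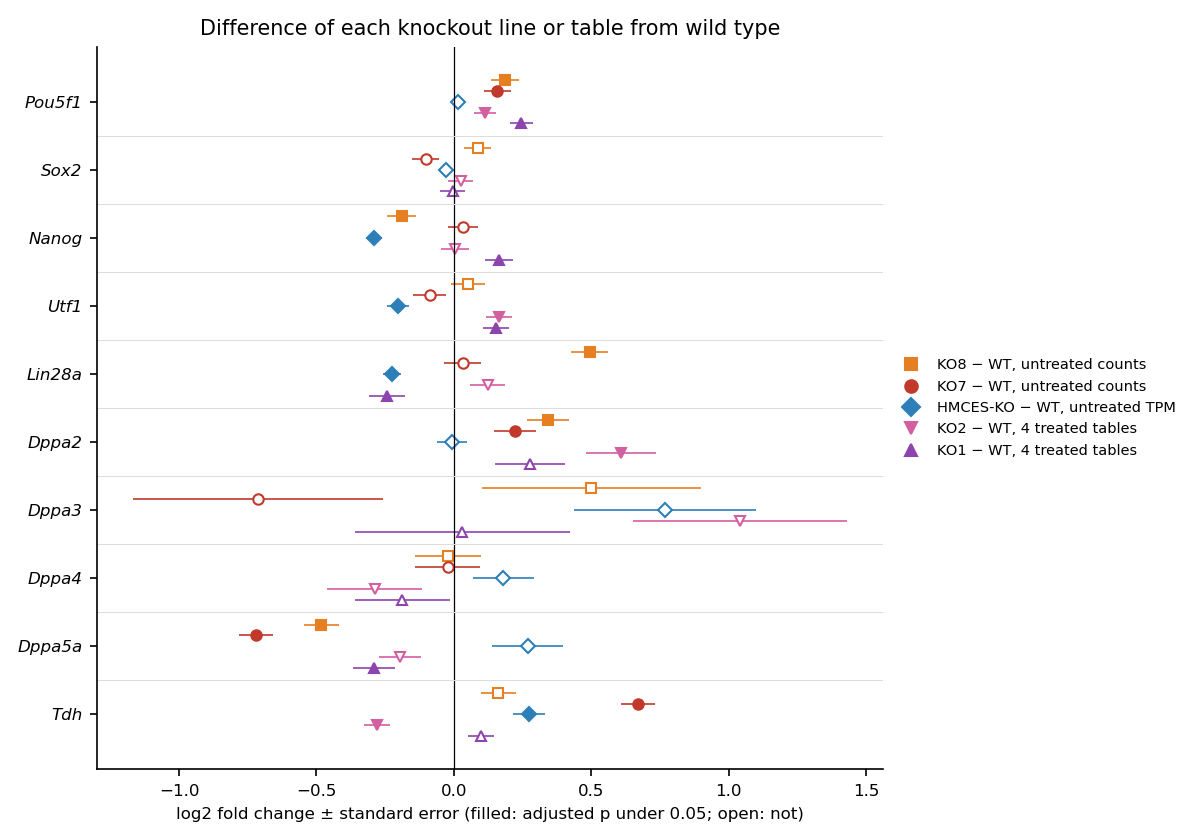
Log2 fold change against WT of each gene for KO8 and KO7 (untreated counts), HMCES-KO (untreated TPM), and KO2 and KO1 (mean of 4 treated tables), with standard errors, filled where the adjusted p is under 0.05. Pou5f1 lies at or above 0 in all 5, though at only 0.02 ± 0.03 in untreated TPM. Each of the other 9 genes has values on both sides of 0, Dppa2 only through -0.01 ± 0.05 in untreated TPM.

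Utf1 encodes a chromatin-bound protein of undifferentiated cells, and its enhancer is a known target of OCT4 with SOX2. Counts gave 995 and 1034 CPM in KO8, 908 and 935 CPM in KO7 and 901 and 1059 CPM in WT. The WT libraries spanned all 4 HMCES-KO libraries, and the log2 fold change of the line mean was -0.02 ± 0.05 (edgeR adjusted p = 0.80). In the untreated TPM table Utf1 was at 1349 and 1255 TPM in HMCES-KO and at 1506 and 1493 TPM in WT, lower by a log2 fold change of -0.20 ± 0.04 (limma adjusted p = 0.025). That call did not survive leaving out either WT library (limma adjusted p = 0.12 and 0.11) or scaling by the median of ratios (limma adjusted p = 0.059).

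After treatment Utf1 lay on the other side of WT. Under activin A, SB431542, BMP4 and LDN193189 it was at 5788, 5640.4, 5521 and 6034 TPM in KO2, at 5423, 5911, 5708 and 5756 TPM in KO1, and at 4753 to 5385 TPM in WT, with a WT median of 5218 TPM. Every HMCES-KO library lay above every WT library of all 4 tables. The log2 fold change over the tables was 0.16 ± 0.04 (limma adjusted p = 0.0034), and it was 0.17 ± 0.05 for KO2 (limma adjusted p = 0.015) and 0.15 ± 0.05 for KO1 (limma adjusted p = 0.019). The KO2 call failed without its LDN193189 library (limma adjusted p = 0.057), and the KO1 call without its SB431542, BMP4 or LDN193189 library (limma adjusted p of 0.072, 0.052 and 0.070). Without limma's trend neither passed, at adjusted p of 0.075 for KO2 and 0.088 for KO1.

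Lin28a encodes an RNA-binding protein that blocks maturation of let-7 microRNAs. Its level split the knockout lines. In the count table it was at 704 and 712 CPM in KO8, 502 and 526 CPM in KO7 and 454 and 551 CPM in WT. KO8 stood well above the other 4 libraries, while KO7 lay within the WT range. Its log2 fold change was 0.50 ± 0.07 for KO8 (edgeR adjusted p = 9.0e-06) and 0.03 ± 0.07 for KO7 (edgeR adjusted p = 0.74), so the call of the line mean came from KO8.

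The untreated TPM table went the other way, with Lin28a at 604 and 605 TPM in HMCES-KO and at 697 and 717 TPM in WT. Its log2 fold change was -0.22 ± 0.03 (limma adjusted p = 0.010), lost without either WT library (limma adjusted p = 0.055 and 0.077). In the treated tables, in the order given above, Lin28a was at 220.0, 223, 184 and 203 TPM in KO2, at 184, 176, 129 and 158 TPM in KO1 and at 177 to 207 TPM in WT, with a WT median of 190.0 TPM. KO1 lay below both WT libraries in all 4 tables, and KO2 above both in 3. The fall in KO1 was -0.24 ± 0.06 (limma adjusted p = 0.0085) and no longer passed without the KO1 library under BMP4 (limma adjusted p = 0.064), while KO2 was 0.12 ± 0.06 above WT (limma adjusted p = 0.17).

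Dppa2 and Dppa4 encode SAP domain proteins that bind chromatin as a pair, and the genes are neighbours on chromosome 16, 15982 bases apart. Dppa2 was called in 6 of the 19 comparisons and Dppa4 in 0. Dppa2 was at 119 and 127 CPM in KO8, 115 and 111 CPM in KO7 and 88.8 and 106 CPM in WT of the count table, so all HMCES-KO libraries lay above WT. Dppa2 had a log2 fold change of 0.34 ± 0.08 for KO8 (edgeR adjusted p = 0.0014) and 0.22 ± 0.08 for KO7 (edgeR adjusted p = 0.025). The KO7 call was lost without KO7 library 1 (edgeR adjusted p = 0.19), KO7 library 2 (0.082) or WT library 1 (0.23), and with DESeq2 (0.072).

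Dppa2 overlapped between the groups of the untreated TPM table, at 181 and 171 TPM in HMCES-KO and 171 and 183 TPM in WT (log2 fold change -0.01 ± 0.05, limma adjusted p = 0.95). After treatment it was at 71.3, 68.8, 52.8 and 54.6 TPM in KO2, at 51.1, 50.8, 43.3 and 49.5 TPM in KO1, and at 31.9 to 50.2 TPM in WT, with a WT median of 40.9 TPM. KO2 lay above both WT libraries in all 4 tables and KO1 in 2. The log2 fold change was 0.61 ± 0.13 for KO2 (limma adjusted p = 0.0020) and 0.28 ± 0.13 for KO1 (limma adjusted p = 0.11). The KO1 value passed with scaling by the median of ratios, at 0.34 ± 0.12 (limma adjusted p = 0.045), and with edgeR on the recovered reads, at 0.34 ± 0.13 (adjusted p = 0.043). The SB431542 table alone also gave a call, 0.87 ± 0.21 (limma adjusted p = 0.016), which failed without either of its WT libraries (limma adjusted p = 0.085 and 0.092) or its KO2 library (limma adjusted p = 0.13).

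Dppa4 stayed under the threshold throughout. Its levels were 23.6 and 20.3 CPM in KO8, 21.7 and 22.1 CPM in KO7 and 21.3 and 23.3 CPM in WT, overlapping throughout, with a log2 fold change of -0.02 ± 0.10 for the line mean (edgeR adjusted p = 0.88). In the untreated TPM table Dppa4 was at 47.1 and 59.0 TPM in HMCES-KO and at 47.6 and 45.3 TPM in WT, which overlapped (log2 fold change 0.18 ± 0.11, limma adjusted p = 0.31). Across treatments the 8 HMCES-KO libraries ran from 13.5 to 28.9 TPM with a median of 20.3 TPM, and the 8 WT libraries from 15.4 to 30.3 TPM with a median of 24.5 TPM. Counts of this gene were few, at 209 to 287 per library in the count table and 35 to 86 recovered reads per treated library.

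Dppa3, also called Stella, encodes a maternal factor that shields DNA methylation after fertilisation, and serum-grown embryonic stem cells are known to express it in a minority of cells. It was the scarcest member. The count table held 18 and 22 counts in KO8, 15 and 5 in KO7 and 17 and 15 in WT. KO7 library 2 stood lowest, and no difference from WT passed (log2 fold change -0.11 ± 0.37 for the line mean, edgeR adjusted p = 0.84). The untreated TPM table held 12 and 9 recovered reads in HMCES-KO and 3 and 8 in WT, a log2 fold change of 0.77 ± 0.33 that did not pass (limma adjusted p = 0.17).

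Recovered reads of Dppa3 under activin A were 36 in KO2, 17 in KO1 and 8 and 5 in WT, and under SB431542 they were 40 in KO2, 26 in KO1 and 16 and 10 in WT. Under BMP4 they were 15 in KO2, 5 in KO1 and 10 and 3 in WT, and under LDN193189 9 in KO2, 4 in KO1 and 11 and 13 in WT. HMCES-KO was thus above WT in the activin A and SB431542 tables, overlapped it in the BMP4 table and was below it in the LDN193189 table. The activin A table gave a log2 fold change of 1.80 ± 0.54 (limma adjusted p = 0.045), and 8 of the 16 libraries ended that call when left out. Without the KO2 library of that table the limma adjusted p was 0.27, without its KO1 library 0.050, without its WT libraries 0.10 and 0.23, and with a pseudocount of 0.1 it was 0.059, while edgeR on the recovered reads gave an adjusted p of 0.060. With the replicate number as a block, which in treated HMCES-KO is also the line, the limma adjusted p was 0.10. Over the 4 tables Dppa3 in KO2 differed from WT by 1.04 ± 0.39 (limma adjusted p = 0.056), and it passed with scaling by the median of ratios (adjusted p = 0.048) and with edgeR on the recovered reads (adjusted p = 0.036).

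Dppa5a encodes a small KH domain RNA-binding protein of undifferentiated cells, and it had the largest difference of any member in the mean of the HMCES-KO lines of the count table. It was at 232 and 248 CPM in KO8, 193 and 215 CPM in KO7 and 350.1 and 321 CPM in WT. All 4 HMCES-KO libraries lay well below WT, at 0.66 of its level on average. Its log2 fold change was -0.48 ± 0.06 for KO8 (edgeR adjusted p = 5.6e-06) and -0.72 ± 0.06 for KO7 (edgeR adjusted p = 3.9e-08), and both passed without any 1 of the 6 libraries.

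The untreated TPM table did not show this: Dppa5a was at 1118 and 1503 TPM in HMCES-KO and at 1036 and 1117 TPM in WT. The HMCES-KO libraries lay apart from each other, and the log2 fold change of 0.27 ± 0.13 did not pass with limma (adjusted p = 0.21) but did, at 0.33 ± 0.08, with edgeR on the recovered reads (adjusted p = 0.0017). With the treatments in the same order, Dppa5a was at 1735, 1892, 2281 and 1516 TPM in KO2, at 1451, 1556, 2106 and 1836 TPM in KO1, and at 1786 to 2694 TPM in WT, with a WT median of 2156 TPM. KO1 lay below both WT libraries in all 4 tables and KO2 in 3. The log2 fold change over the tables was -0.24 ± 0.07 (limma adjusted p = 0.013), made up of -0.20 ± 0.08 for KO2 (limma adjusted p = 0.062) and -0.29 ± 0.08 for KO1 (limma adjusted p = 0.0075). RefSeq lists the pseudogenes Dppa5b and Dppa5c on the same chromosome, and reads shared with them could be split or lost in counting, as could reads shared between Pou5f1, Nanog or Dppa3 and their own pseudogenes.

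Tdh encodes threonine dehydrogenase, the enzyme through which mouse embryonic stem cells break threonine down to glycine and acetyl-CoA. It was at 156 and 146 CPM in KO8, 220.4 and 208 CPM in KO7 and 129 and 141 CPM in WT. All HMCES-KO libraries lay above WT, KO7 far more so than KO8. For Tdh the log2 fold change was 0.67 ± 0.06 for KO7 (edgeR adjusted p = 9.3e-08) and 0.16 ± 0.06 for KO8, which just missed the threshold (edgeR adjusted p = 0.052) and passed with scaling by the median of ratios (0.041) or without the filter (0.036).

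In the untreated TPM table Tdh was higher as well, at 268 and 298 TPM in HMCES-KO and at 229 and 239 TPM in WT, a log2 fold change of 0.27 ± 0.06 (limma adjusted p = 0.032). This call was lost without either WT library (limma adjusted p = 0.13 and 0.085) and without the filter on low values (0.071). In the treated tables the lines parted: Tdh was at 224, 227, 224 and 224 TPM in KO2, at 296, 283, 293 and 298 TPM in KO1, and at 249 to 293 TPM in WT, with a WT median of 274 TPM. KO2 lay below both WT libraries in every table, and KO1 above both in 3 of 4. Over the tables KO2 was lower by -0.28 ± 0.05 (limma adjusted p = 0.00048), and KO1 was 0.10 ± 0.05 above WT (limma adjusted p = 0.13). In KO1 Tdh did pass, as higher, with scaling by the median of ratios, at 0.16 ± 0.05 (limma adjusted p = 0.017), and with edgeR on the recovered reads, at 0.16 ± 0.06 (adjusted p = 0.026). Tdh was thus called higher in untreated KO7 and called lower in treated KO2.

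**Figure D4:**
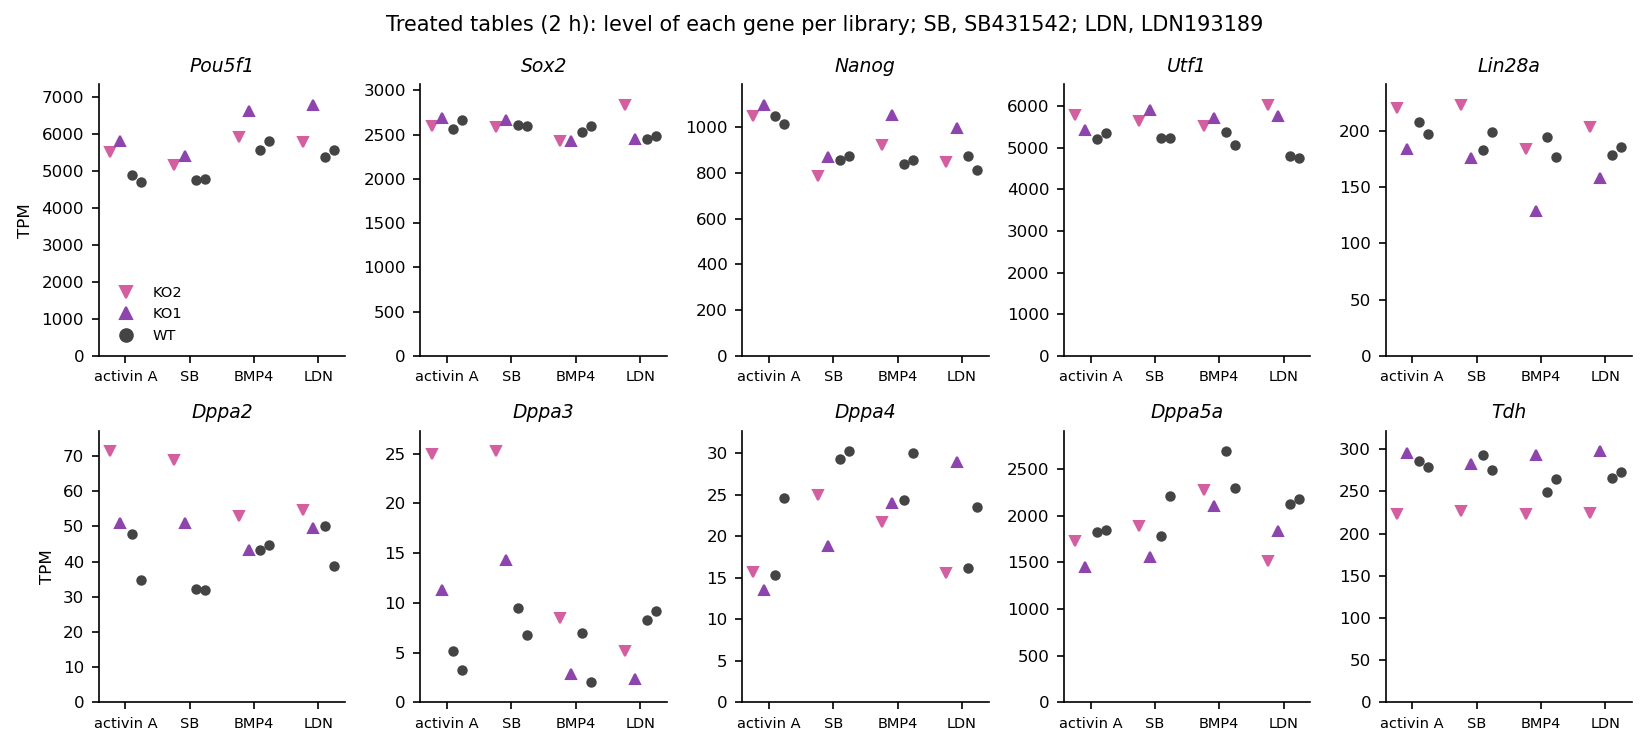
Level of each gene in TPM (linear axis from 0) in the libraries of KO2, KO1 and WT after 2 h with activin A, SB431542, BMP4 or LDN193189. Utf1 lies above every WT library in all 8 HMCES-KO libraries, and Tdh stays at 224 to 227 TPM in KO2 against 249 to 293 TPM in WT.

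Single treated tables gave few calls. Under activin A 1 of 10 members was called, Dppa3, which was higher, against 12.1% of 12608 genes, 5.1% higher and 7.03% lower. Under SB431542 it was Dppa2, also higher, against 12.1%, 5.41% higher and 6.73% lower. BMP4 gave 0 members, against 6.33%, 2.13% higher and 4.2% lower, and LDN193189 gave 1, Utf1, which was higher, against 2.29%, 0.793% higher and 1.5% lower. Under BMP4, where limma called no member, 1 had an unadjusted p under 0.05, and edgeR on the recovered reads also called none. Under activin A edgeR on the recovered reads called Pou5f1, at 0.28 ± 0.08 (adjusted p = 0.036), and not Dppa3. The LDN193189 call of Utf1, a log2 fold change of 0.30 ± 0.07 (limma adjusted p = 0.040) at 6034 TPM in KO2, 5756 TPM in KO1 and 4795 and 4753 TPM in WT, was lost with the replicate number as a block (limma adjusted p = 0.12), without the filter (0.054), without limma's trend (0.19), and on leaving out any of 10 of the 16 libraries, the 4 of its own table included (limma adjusted p up to 0.23).

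No member passed the test of 2 h of ligand against inhibitor of the same receptors. Activin A against SB431542 gave 0 of 10 called members in HMCES-KO, against 0.103% of 12608 genes, 0.0872% higher and 0.0159% lower, and 0 of 10 in WT, against 0.0159%, all higher (limma). BMP4 against LDN193189 gave 0 of 10 in HMCES-KO, against 0.0238%, all higher, and 0 of 10 in WT, against 0.0317%, 0.0238% higher and 0.00793% lower. At an unadjusted p under 0.05 there was 1 member in each of these contrasts except BMP4 against LDN193189 in WT, which had 0, and edgeR on the recovered reads called 0 in all 4. The response in HMCES-KO minus that in WT, tested as an interaction, called 0 members for either pathway, against 0.0% of genes each, with 0 members at an unadjusted p under 0.05 and 0 by edgeR on the recovered reads. Treatment and table are one split here, so a difference between tables cannot be told apart from one between treatments.

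Nanog was the member with an unadjusted p under 0.05 for activin A against SB431542, in HMCES-KO and in WT. Under activin A it was at 1049 TPM in KO2, 1099 TPM in KO1 and 1051 and 1015 TPM in WT, and under SB431542 at 789 TPM in KO2, 871 TPM in KO1 and 856 and 874 TPM in WT. All 4 activin A libraries lay above all 4 SB431542 libraries. The log2 difference, activin A minus SB431542, was 0.37 ± 0.09 in HMCES-KO (limma adjusted p = 0.48) and 0.26 ± 0.09 in WT (limma adjusted p = 1.0), and the difference of the responses was 0.12 ± 0.13 (limma adjusted p = 1.0). Pou5f1 and Sox2 differed by 0.10 ± 0.09 and 0.01 ± 0.08 in HMCES-KO and by 0.01 ± 0.09 and 0.01 ± 0.08 in WT in the same contrast, none of which passed.

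Several members separated the knockout lines. KO8 against KO7 gave 6 called members of 10, 4 higher and 2 lower, against 28.2% of 13475 genes, 13.9% higher and 14.3% lower (edgeR). KO2 against KO1 gave 2, 1 higher and 1 lower, against 6.58% of 12608 genes, 3.89% higher and 2.7% lower (limma). These comparisons share no library, and since no label states the correspondence of the line names, their values are only set side by side. Lin28a differed by 0.46 ± 0.07 for KO8 minus KO7 (edgeR adjusted p = 2.2e-05) and by 0.37 ± 0.07 for KO2 minus KO1 (limma adjusted p = 0.0065). Tdh differed by -0.51 ± 0.06 (edgeR adjusted p = 3.0e-06) and by -0.38 ± 0.06 (limma adjusted p = 0.00061). Both calls of Lin28a and of Tdh held on leaving out any 1 library.

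The other 4 calls between KO8 and KO7 were Nanog at -0.22 ± 0.05 (edgeR adjusted p = 0.0036), Sox2 at 0.19 ± 0.05 (0.0059), Dppa5a at 0.24 ± 0.06 (0.0082) and Dppa3 at 1.21 ± 0.44 (0.042). For KO2 minus KO1 the same genes gave -0.16 ± 0.06, 0.03 ± 0.05, 0.09 ± 0.09 and 1.01 ± 0.45, none of which passed (limma adjusted p = 0.12 to 0.82). Leaving out 1 library ended each of these 4 calls in turn: without KO7 library 1 the edgeR adjusted p was 0.11 for Nanog, 0.10 for Sox2, 0.24 for Dppa5a and 0.052 for Dppa3, and without KO7 library 2 it was 0.30 for Dppa3. DESeq2 did not call Dppa3 (adjusted p = 0.22). Beyond these, Utf1 passed for KO8 minus KO7 without the filter, at 0.13 ± 0.05 (edgeR adjusted p = 0.030), and Pou5f1 for KO2 minus KO1 with edgeR on the recovered reads, at -0.16 ± 0.05 (adjusted p = 0.030).

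**Figure D5:**
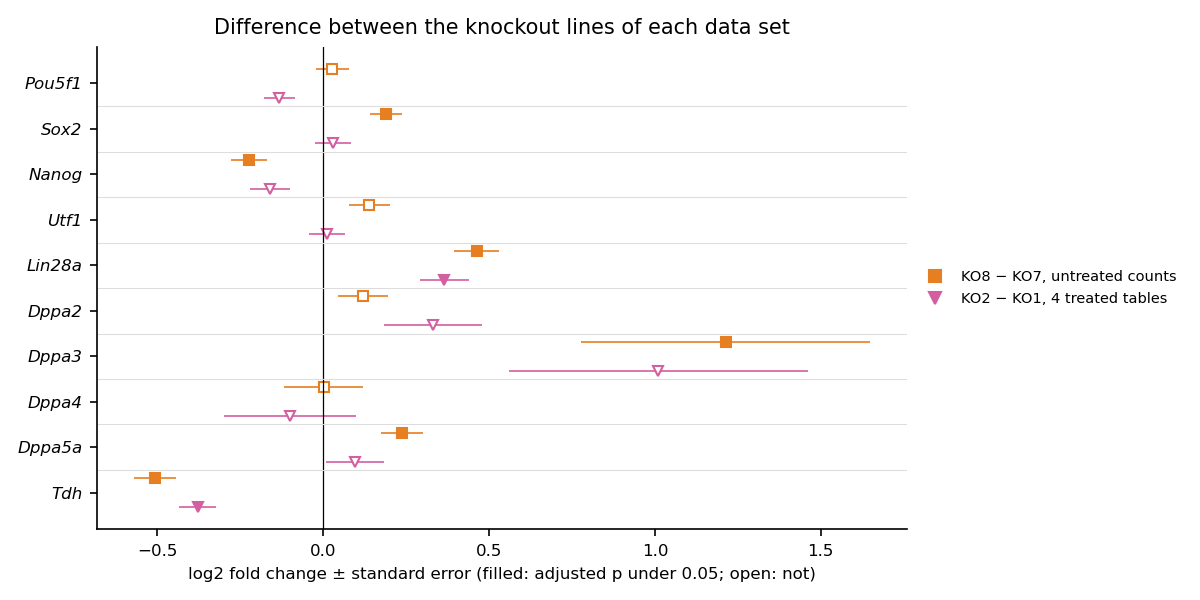
Log2 difference of each gene between the knockout lines, KO8 minus KO7 in the untreated count table and KO2 minus KO1 over the 4 treated tables, with standard errors, filled where the adjusted p is under 0.05. Lin28a is called higher and Tdh called lower in KO8 and in KO2.

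Beyond the 10 members, a list of 20 further genes of the pluripotency network held both rises and falls. By counts, 10 of the 20 rose and 5 fell in the HMCES-KO mean, with a median log2 fold change of 0.14 against -0.01 over all genes tested, of which 19.9% rose and 20.8% fell (edgeR). The largest were Klf2 at 1.18 ± 0.05, Nr0b1 at 0.65 ± 0.07 and Fbxo15 at 0.60 ± 0.05, which rose, and Klf4 at -0.56 ± 0.04, which fell. Klf2 and Klf4 are Krüppel-like factors of the naive state, Nr0b1 encodes the orphan receptor DAX1, and Fbxo15 is an F-box gene activated by OCT4 with SOX2. By untreated TPM, 4 rose and 6 fell (median -0.04 against -0.06; 5.8% and 10.2% of all genes), with Klf2 again the largest rise at 0.54 ± 0.03, and with Tbx3 at -0.65 ± 0.04, Klf4 at -0.45 ± 0.04 and Tfcp2l1 at -0.42 ± 0.04 the largest falls. After treatment, 6 rose and 6 fell (median -0.03 against -0.04; 13.8% and 20.7% of all genes), led by Klf2 at 1.19 ± 0.07, Klf5 at -0.80 ± 0.06, Tdgf1, which encodes the Nodal co-receptor Cripto, at 0.78 ± 0.14, and Klf4 at -0.73 ± 0.07 (limma).

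Around Tdh, a list of 9 enzymes of threonine and glycine breakdown and of the folate steps that take up the released carbon was mixed as well. By counts, 3 rose and 5 fell (median -0.17), against 19.9% and 20.8% of all genes, among them Mthfd2 at -0.70 ± 0.05, Gldc at -0.63 ± 0.05, Shmt2 at -0.32 ± 0.05 and Gcat at -0.25 ± 0.06. Gcat, which takes the product of Tdh on to glycine, thus fell in the count table while Tdh rose. Gldc, the glycine decarboxylase, fell also in the untreated TPM table, at -0.78 ± 0.05, where 2 of 9 rose and 1 fell (median 0.02; 5.8% and 10.2% of all genes). Over the treated tables Gldc was at -0.72 ± 0.21, and 4 of the 9 rose and 3 fell (median 0.15; 13.8% and 20.7% of all genes). Mthfd2 rose at 0.23 ± 0.04 in the untreated TPM table, and Gcsh rose at 0.35 ± 0.04 there and at 0.52 ± 0.10 over the treated tables. A list of 7 genes of the 2-cell-like state, which Dppa2 and Dppa4 help to switch on, was too low to test in the untreated tables. None of the 7 passed the filter there, and of 2 tested in the treated tables none was called in the HMCES-KO mean. Zscan4d was called lower in KO1 than in WT, at -0.91 ± 0.22 (limma), as were 20.3% of all genes. It was called higher in KO2 than in KO1, at 1.26 ± 0.25, as were 3.89% of all genes. The 2 tested genes together summed to only 0.446 to 3.99 TPM per treated library, so these values lie near the floor.

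The genes whose levels most resembled those of the core factors were named by Pearson correlation of log2 values over the 16 treated libraries, after centring each table, among 7761 genes. For Pou5f1 these were Vdac1 (0.957), Syncrip (0.956) and Marcksl1 (0.946), for Sox2 they were Mrps30 (0.903), Mcl1 (0.878) and E2f1 (0.859), and for Nanog they were Zfp212 (0.913), Mcm5 (0.908) and Ly75 (0.905). The libraries share lines and tables, so these values describe likeness in these libraries only.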

How the data were processed

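The deposited count table held the authors' read-pair counts per gene, made with featureCounts 2.0.1 on mm10, per the file headers. The other deposited tables held TPM computed by the authors. FastQC 0.11.5, Bowtie2 2.3.3, SAMtools 1.9 and DESeq2 are named per the submitters' processing notes.

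The main test of counts was the quasi-likelihood test of edgeR 4.0.16 (filterByExpr, TMM) in R 4.3.3, with KO8, KO7 and WT as 3 groups. Standard errors given with edgeR were computed back from its F statistic, as the absolute log2 fold change over the square root of F. For TPM values limma 3.58.1 with a trended prior was run on log2(TPM + 1), keeping genes that reached a TPM of 1 in 2 or more libraries. TPM fold changes are therefore on that scale, which understates those of low genes such as Dppa3. The 16 treated libraries were fitted together on the 12928 genes of all 4 tables, rescaled to a sum of 1000000. Line contrasts used the table as a term. Adjustment was by Benjamini-Hochberg over all genes of a contrast, and calls needed an adjusted p under 0.05. All 10 members were named, and other genes were the called genes of a list with the largest change, at most 4.

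Whole reads behind TPM were recovered: 100% of untreated values came out whole within 0.01 reads, and 100% of treated genes were solved within 0.002. DESeq2 1.42.0 was an alternative. Tests were tried on simulated data, drawn with a single fixed spread for all genes and no difference between knockout lines. Since the real libraries differ from that setting, the trial does not bear on the calls given here. Same-numbered WT and HMCES-KO libraries deviated independently (correlations -0.04 to 0.03), so numbers pair no samples there, while libraries of the same knockout line in different treated tables did deviate together (0.23 to 0.32). No label says that libraries come from separate cultures. The p-values therefore reflect the spread among libraries alone, and that spread may be technical. Replicate libraries differed beyond sampling noise. The members, the lists and the cut on chromosome 6 were chosen with earlier results of these data known.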

Additional observations from a re-analysis of the deposited data

Results flagged for a closer look

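A test of the difference between the knockout lines passed for 6 members in untreated cells, of which Sox2 and Dppa3 passed the test against WT in neither line. For KO8 minus KO7 (edgeR, log2 scale) the difference was 0.46 for Lin28a, -0.51 for Tdh, 0.24 for Dppa5a, 0.19 for Sox2, -0.22 for Nanog and 1.21 for Dppa3, the last from 18 and 22 counts in KO8 and 15 and 5 in KO7. In treated cells the test of KO2 minus KO1 (limma) passed for Lin28a at 0.37 and for Tdh at -0.38. Lines of the count table also differed in the chromosome 6 stretch that holds Nanog and Dppa3, with a median log2 difference of 0.12 for KO8 minus KO7 over 422 genes, and the treated lines with one of 0.25 for KO2 minus KO1 over 388 genes. The part of this shift in these values was not tested.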

How the results depend on the processing

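No called value of the 42 called member results changed sign under any alternative tried. The alternatives refit the same libraries, and the results were picked as past the threshold, so this says little on direction. Between data sets or lines, called values of Nanog, Utf1, Lin28a and Tdh went both ways. With the HMCES-KO libraries of the count table as 1 group, 1 of 5 members stayed past the threshold, where 11.5% of all genes were called. The adjusted p of the others is given beside the results. By untreated TPM, the 4 members called became 2 without the filter and 0 without limma's trend. Without the trend the count was 0 under activin A, 0 under LDN193189, 2 for KO2, where Pou5f1 and Utf1 were lost, and 3 for KO1, where Nanog and Utf1 were lost. It was 0 under activin A with a pseudocount of 0.1, and 0 under LDN193189 without the filter. With the replicate number as a block it was 0 under activin A and 0 under LDN193189, and among the 31 called member results for which the replicate block was run it changed no other call. The block was not run for KO2 and KO1 taken apart. In treated HMCES-KO the replicate number is also the line, and it pairs no WT library with a knockout library. The causes were not tested.

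Leaving out 1 library at a time, the members called ranged from 5 to 7 for the HMCES-KO mean of the count table, 3 to 7 for KO8, 2 to 6 for KO7, 2 to 7 for KO8 against KO7 and 1 to 6 in the untreated TPM table. After treatment they ranged from 0 to 2 with activin A, from 0 to 1 with SB431542 and with LDN193189, stayed at 0 with BMP4, and were 4 to 4 for the mean, 3 to 5 for KO2, 2 to 5 for KO1 and 2 to 2 for KO2 against KO1.

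Over all genes, DESeq2 called 3592 for the HMCES-KO mean, where edgeR called 5476, 3286 for KO8 (5248), 3312 for KO7 (5149) and 2305 for KO8 against KO7 (3797), and the HMCES-KO libraries as 1 group gave 1552. By untreated TPM, 2128 genes were called, against 339 without the trend, 1311 without the filter and 3587 by edgeR on recovered reads, an alternative chosen after seeing the data. Under BMP4 798 were called, 443 without the trend and 444 with the block, and under LDN193189 289, 86 and 125. Among ligand against inhibitor contrasts, activin A gave 13 in HMCES-KO and 3 without the trend, and in WT 2, 0 without the trend and 1 with a pseudocount of 0.1. BMP4 gave 3 in HMCES-KO and 5 by edgeR on recovered reads, in WT 4 and 0 without the trend, and for the difference of responses 0 and 1 by edgeR on recovered reads. On leaving out 1 library, the number of all genes called also changed in every comparison. The ranges of members called given above therefore do not show instability particular to these 10 genes. Depth limits Dppa3 most, at 3 to 40 reads or counts per library.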
